A study of Homo sapiens with 8 samples.

Results

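The interferon-stimulated gene loci described here are the genomic surroundings of 9 antiviral genes, ISG15, IFIT2, IFIT3, IFIT1, OAS1, OAS3, OAS2, MX2 and MX1. A CTCF peak belonged to them if it overlapped the gene body of 1 of the 9 genes in GENCODE (GRCh37, the hg19 build) extended by 100 kb on each side, and overlapping windows were merged. This gave 4 loci, chr1:836518-1049920 for ISG15, chr10:90943451-91266244 for the IFIT cluster, chr12:113243661-113549528 for the OAS cluster and chr21:42633926-42941998 for the MX genes. They held 37 of the 47470 CTCF peaks of control cells and 31 of the 29558 CTCF peaks of treated cells.

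The peaks came from HT1080, a human fibrosarcoma cell line of connective tissue that the labels give as ras +. One group of cells carried no treatment label (control), and the other was given CBL0137, a DNA-intercalating curaxin, at 3 µM for 6 h. Chromatin was precipitated with an antibody against CTCF in 2 biological replicates per condition, each with an input library, in all 8 libraries. The authors merged the replicates of a condition into 1 peak list, so no value has a replicate error and no difference between conditions was tested. Intervals given below are Wilson 95% intervals that cover counting error only and treat neighbouring peaks as independent.

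CTCF is a zinc-finger protein that binds an asymmetric DNA sequence and, together with cohesin, anchors chromatin loops and insulates neighbouring regions. Loops usually join sites whose sequences point toward each other. Interferon-stimulated genes are silent or weakly active in resting cells and are switched on by interferon through the JAK-STAT pathway. IFIT proteins bind foreign RNA, OAS enzymes sense double-stranded RNA and make oligoadenylates as signalling molecules, MX proteins are GTPases that trap viral components, and ISG15 is a ubiquitin-like modifier. The family members lie side by side in the genome, so that a few CTCF sites flank each cluster.

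The following sequences lie under some of the peaks that flank the gene clusters or lie within the member genes. The site of 1 arisen peak near ISG15 was added. The sequences are shown because the fates reported below are those of these sites. Each is the best match to the 12-base core of the CTCF consensus within 400 bp around the peak centre, read from GRCh37 on either strand and printed 5′ to 3′ on the strand of the match. The 12 core bases are in capitals between 9 flanking bases on either side, and the coordinates are those of the core.
IFIT left flank, kept, chr10:91020286-91020297, plus strand: ccttcattgCCAGCAGGGGGCagcagttcc
IFIT right flank after treatment, kept, chr10:91186193-91186204, plus strand: ttgctaattCCAGCAGATGGCagtgctgca
IFIT3 gene body, kept, chr10:91129449-91129460, minus strand: cagctgaagGCAGTAGAGGGCgcaaatacc
IFIT2 gene body, lost, chr10:91053382-91053393, plus strand: tcttcctgaCCTGGAGATGGCagccttttc
Upstream of the IFIT1 start, lost, chr10:91151754-91151765, plus strand: catgatggaGCAATAGAGGGCtctctattt
OAS left flank, kept, chr12:113338276-113338287, plus strand: agctagctgCCACTAGGTGGAgagaggtgc
OAS2 intron, kept, chr12:113430737-113430748, minus strand: ggggtgaacCCAGTAGAGGGCgctctggcc
OAS2 intron, lost, chr12:113440214-113440225, minus strand: aagtgaccaCAACTAGGTGGCttaaaacaa
OAS right flank, kept, chr12:113468933-113468944, minus strand: tctctaataCCACAAGATGGCagcaagagc
MX left flank, lost, chr21:42655337-42655348, plus strand: acgagtctgTCACTAGGTGGTggtgttgta
MX1 gene body, kept, chr21:42832716-42832727, minus strand: ccaggcctgCCACGAGAGGGCacctgcctc
ISG15 gene body, kept, chr1:937410-937421, minus strand: ggatgacccCCAGCAGGAGGCggcggcgac
ISG15 right flank, kept, chr1:950937-950948, plus strand: cgcatgtgcCCAGCAGGGGGTgtcctggct
AGRN intron, arisen, chr1:990120-990131, minus strand: agcaggtgaCCAGCAGGGGGCccacacctg

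A match was counted when it had at most 1 mismatch. By this measure 21 of the 37 control peaks held a match, against 49.0% of all control peaks and 2.81% of windows placed 10 kb away. Among the printed sites, those of the lost IFIT2, IFIT1 and MX peaks had 2 mismatches and were not counted as matches. That of the lost OAS2 peak had 1. Kept sites with 2 mismatches, in OAS2 (chr12:113443664-113443675) and at the left flank of ISG15 (chr1:934226-934237), were not printed. Also not printed were the lost OAS1 site, with 2 mismatches, and the lost right flank of IFIT, with 3. A match describes the letters under a peak and not the binding itself.

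A control peak was called kept if a treated peak overlapped it by at least 1 bp and lost if none did, and a treated peak was called arisen if it overlapped no control peak. Of the 37 control peaks, 26 were kept and 11 were lost, a share of 29.7% (17.5 to 45.8%). Across the whole list 42.9% of control peaks were lost, and 40.9% of those within 100 kb of a protein-coding gene. Both of these shares lay within the interval of the members. Of the 31 treated peaks 4 had arisen, a share of 12.9% (5.13 to 28.9%) beside 8.07% of all treated peaks.

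The loci fell apart into ISG15, where all control peaks were kept, and the other loci, where losses were close to the share of the whole list. At ISG15 0 of 13 control peaks were lost (0 to 22.8%) and 4 of 17 treated peaks had arisen (23.5%, 9.56 to 47.3%). At the IFIT cluster 5 of 10 control peaks were lost (50%, 23.7 to 76.3%). The OAS cluster lost 5 of 12 (41.7%, 19.3 to 68.0%) and the MX locus 1 of 2 (50%, 9.45 to 90.5%). None of the 14 treated peaks at these last 3 loci had arisen, and together they lost 11 of 24 control peaks (45.8%, 27.9 to 64.9%). The interval for ISG15 lay below the share of the whole list, whereas those of the other 3 loci included it. ISG15 was singled out as the locus with the lowest share, and its peaks are neighbours in 1 window.

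**Figure D1:**
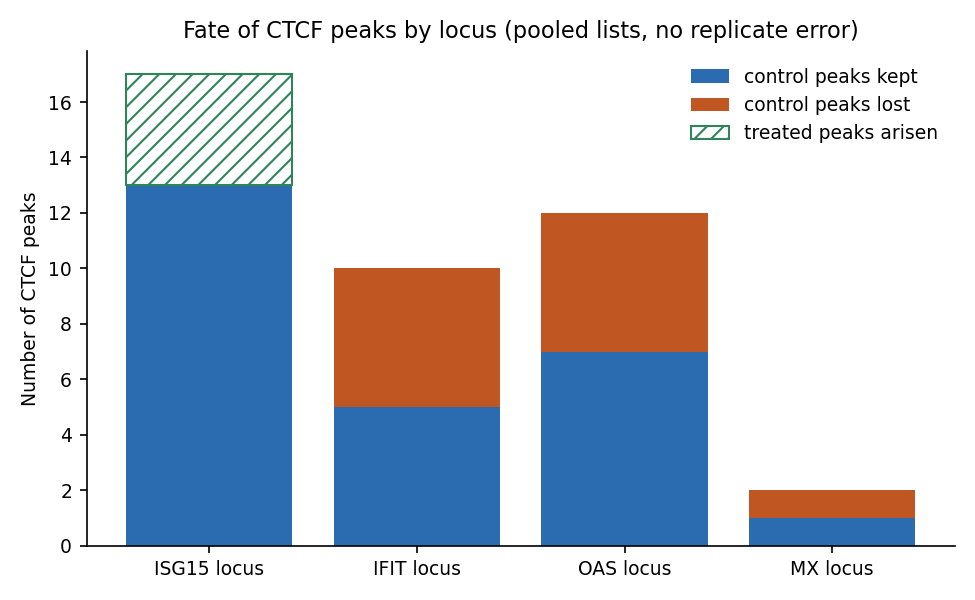
Number of CTCF peaks (vertical axis) at each of the 4 loci, with control peaks kept (blue), control peaks lost (orange) and treated peaks arisen (hatched) stacked. ISG15 has 13 kept, 0 lost and 4 arisen peaks, and losses occur at IFIT (5 of 10), OAS (5 of 12) and MX (1 of 2).

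The loci also differed in how densely CTCF was bound. Control cells had 60.9 peaks per Mb around ISG15, 39.2 around OAS, 31.0 around IFIT and 6.49 around MX, and the genome had 15.6. Among 19894 protein-coding genes the median number of control peaks within 100 kb was 6, and 12.5% of genes had at most 2, as MX2 did. Of the 4739 protein-coding genes with at least 10 control peaks in that window, 122 (2.57%) had none lost, as ISG15 did, and 247 (5.21%) had at least 4 arisen. Windows of neighbouring genes share peaks, so these genes are not independent of each other. ISG15 was singled out by its own counts, from which the cut of 4 arisen peaks was taken. The genes were not matched to it for fold enrichment or GC content, so these shares do not measure how unusual ISG15 is.

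The windows were bounded by distance and not by a change in CTCF binding. The control peak just inside the OAS window on the left lay at chr12:113261651-113261850 with a fold enrichment of 26.0, and the one just outside lay 0.110 kb beyond the edge with a fold enrichment of 20.8. Both were lost. On chromosome 1 the leftmost control peak of the ISG15 window was the leftmost of the chromosome, and the next on the right lay 7.53 kb outside the window, was kept and had a fold enrichment of 51.3.

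**Figure D2:**
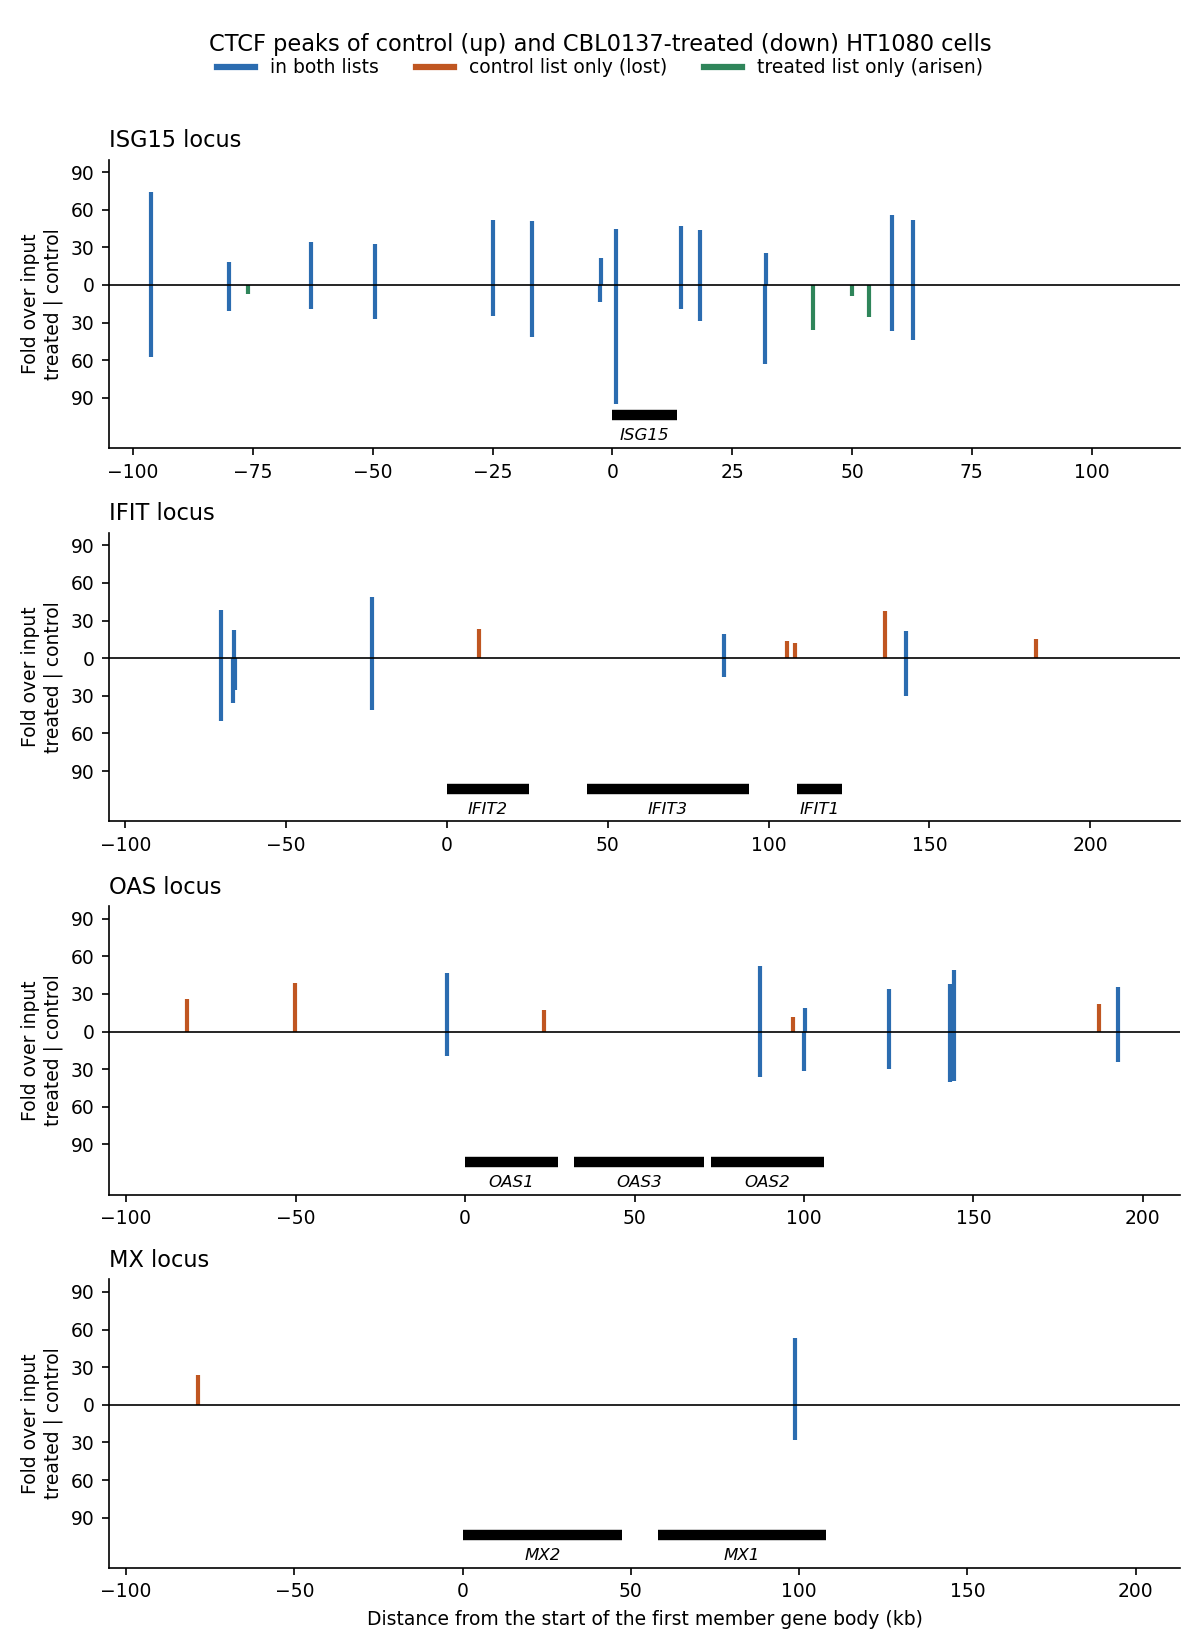
CTCF peaks along the 4 loci, with the distance from the start of the first member gene body in kb (horizontal axis) and the fold enrichment over input of control peaks upward and treated peaks downward (vertical axis). Blue bars are peaks present in both lists, orange bars control peaks that were lost, green bars treated peaks that had arisen, and black bars member gene bodies. Losses lie within and around the IFIT and OAS clusters, and the 4 arisen peaks lie around ISG15.

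Peak strength was measured by the fold enrichment of ChIP over input within each list. Because the lists were scaled separately, a fold of one list was not divided by that of the other, and strengths were compared by percentile, the rank of a peak within its own list from 0 to 100. The lists differ in length, and the peaks missing from the treated list were mostly weak ones, so a shared peak tends to rank lower in it. Of 27003 shared peaks that overlapped a single partner, 17532 ranked lower in the treated list and 35.1% ranked higher, with a median change of −9.26 percentile points and quartiles of −28.8 and 6.37. A lower percentile is therefore given as a rank and not as a loss of binding. For some members the share of all shared peaks that moved as far is given. Several of them were named because they moved most, so these shares are no test.

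At the IFIT cluster 4 of the 6 control peaks outside the genes were kept and 3 of the 4 among the genes were lost. The cluster covers 122.794 kb, from IFIT2 over IFIT3 to IFIT1, and contained 4 control peaks but 1 treated peak. The peak nearest to the cluster on the left, chr10:91020101-91020500, 22.951 kb away, was the strongest of the locus in control cells. Its fold enrichment was 49.0 in control cells (percentile 90.5) and 41.2 in treated cells (percentile 77.2). In treated cells the strongest was chr10:90973001-90973350. The left flank held an exact consensus match on the plus strand, that is, pointing into the cluster.

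In the full lists the right flank of the IFIT cluster moved outward. In control cells it was chr10:91179401-91179650, in a UTR of IFIT5, a further RNA-binding IFIT gene, 13.157 kb from the cluster, with a fold enrichment of 37.4 (percentile 72.5). No treated peak overlapped it. When all control peaks were ranked by fold enrichment into deciles, 10 groups of equal size, it fell in the eighth, of which 18.7% were lost. It had no consensus match, the best sequence having 3 mismatches. The next peak, chr10:91186001-91186350, 19.857 kb from the cluster on the treated list, was kept, with a fold enrichment of 21.8 in control cells (percentile 30.7) and 29.8 in treated cells (percentile 54.9). Its exact match lay on the plus strand, as did that of the left flank, so the sequences of the flanking peaks in treated cells pointed the same way. The distance between the flanks went from 158.901 to 165.551 kb. The lost flank was 250 bp wide and had a deposited FDR of 3.08e-05. It would drop out with an FDR of at most 1e-05 required in both lists. The right flank would then be chr10:91186001-91186350 in control cells and its overlapping peak in treated cells, with no move.

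Inside the cluster 3 of 4 control peaks were lost. The IFIT2 peak, chr10:91053251-91053550, lay 8403 bp upstream of the canonical start of the gene and had a fold enrichment of 23.4 (percentile 35.2). Upstream of IFIT1 were 2 weak peaks, 3155 and 630 bp from its start, with fold enrichments of 14.1 and 11.9, in the second and the first decile of the list. All of these lacked a treated peak. The peak that was kept, chr10:91129201-91129650, lay in the IFIT3 gene body outside its canonical transcript and was weak in both lists, with fold enrichments of 19.6 (percentile 24.5) and 15.0 (percentile 16.6). With these fates the CTCF peak nearest to the IFIT1 start was 630 bp away in control cells and 22955 bp away in treated cells, and for IFIT2 the distance went from 8403 to 41503 bp.

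To the left of the cluster, chr10:90973001-90973350, 6101 bp from the start of CH25H, a cholesterol hydroxylase gene, was kept with fold enrichments of 38.5 (percentile 74.9) and 49.8 (percentile 88.2). An intron of LIPA, the lysosomal acid lipase gene, carried a control peak 1100 bp wide, chr10:90976751-90977850, with a fold enrichment of 22.7. In treated cells the same stretch was covered by 2 peaks, of fold enrichment 35.9 and 25, each 450 bp wide. Under them lay 2 consensus matches on opposite strands, 704 bp apart, with 29 of the 30 printed bases identical.
LIPA intron, left match, chr10:90976915-90976926, plus strand: aagttttggCCACAAGGTGGCgcctggtaa
LIPA intron, right match, chr10:90977619-90977630, minus strand: aagttttggCCACAAGGTGGCgcccggtaa
These matches pointed toward each other. Counted from the middle of the wide control peak, they lay outside the searched 400 bp, so that peak counted as having no match. The remaining control peak of the locus, in an intron of the transporter gene SLC16A12, had a fold enrichment of 15.0 and was lost.

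At the OAS cluster both flanking peaks were kept and their sequences pointed toward each other. The cluster covers 105.868 kb, from OAS1 over OAS3 to OAS2. The left flank, chr12:113338151-113338500, lay 6442 bp upstream of the OAS1 start and had a fold enrichment of 46.5 in control cells (percentile 87.8) and 19.4 in treated cells (percentile 28.8). Of all shared peaks 4.86% dropped by as many percentile points. The right flank, chr12:113468651-113469100, had fold enrichments of 34.0 (percentile 64.6) and 29.5 (percentile 54.3). The matches, on the plus and the minus strand, had 1 mismatch each, and the distance between the flanks was 130.151 kb in control and 130.251 kb in treated cells.

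Inside the OAS cluster 2 of 4 control peaks were lost, and these were the weakest. The peak chr12:113366851-113367050, in the OAS1 gene body and 9329 bp upstream of the OAS3 start, had a fold enrichment of 17.1, and chr12:113440201-113440350, in an OAS2 intron, had one of 11.6. The strongest control peak of the locus, chr12:113430451-113431100, also in an OAS2 intron, was kept, with fold enrichments of 52.3 (percentile 93.3) and 36.7 (percentile 69.3). It held an exact match on the minus strand and, 85 bp away, a match with 1 mismatch on the plus strand. In treated cells the highest fold enrichment of the locus was 40.7, right of the cluster. A weaker peak 27501 bp downstream of the OAS2 start, chr12:113443701-113443950, was kept and went up in rank, from a fold enrichment of 18.4 (percentile 21.4) to one of 31.3 (percentile 58.3). Of all shared peaks 3.41% gained as much. For OAS3 the nearest peak was 9329 bp away in control cells and 38004 bp away in treated cells, whereas for OAS1 and OAS2 the same peaks remained nearest.

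Around the OAS cluster 3 of 8 control peaks were lost. Left of it, in introns of RPH3A, a gene of synaptic vesicle traffic, both control peaks were lost, with fold enrichments of 26.0 and 38.9. The second of these, chr12:113293201-113293500, was at percentile 75.7 and held a match with 1 mismatch. Right of the cluster, chr12:113486451-113486800 and chr12:113487901-113488200 were kept, with control fold enrichments of 37.6 and 49.2 and treated ones of 40.7 and 39.2. Their matches, on the plus and the minus strand, pointed toward each other. Near DTX1, a regulator of Notch signalling, the intron peak with a fold enrichment of 21.9 was lost and chr12:113536051-113536500 was kept (35.5 in control and 24.7 in treated cells).

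The MX genes stood in a stretch with few CTCF peaks. Within 100 kb of MX2 and MX1 control cells had 2 peaks and treated cells 1. The left flank of the pair, chr21:42655201-42655550, 78.376 kb from MX2, had a fold enrichment of 23.4 (percentile 35.1) and was lost. In treated cells the next peak on that side lay 191.276 kb from MX2, outside the window, with a fold enrichment of 9.02 (percentile 2.76). It overlapped a control peak with a fold enrichment of 31.2 (percentile 57.2). The right flank lay 167.403 kb from MX1, also outside the window, and was present in both lists, with a fold enrichment of 29.7 in control cells (percentile 53.0) and 8.84 in treated cells (percentile 2.42). The distance between the flanks thus went from 353.851 to 466.801 kb. Between them, chr21:42832551-42832900 in the MX1 gene body, 34559 bp downstream of the canonical start, was kept at fold enrichments of 52.9 (percentile 93.7) and 27.7 (percentile 49.9), a change of −43.8 percentile points. Of all shared peaks 12.6% dropped by as much.

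Around ISG15 every control peak was kept by the overlap of at least 1 bp. The 13 control peaks had fold enrichments from 18.6 to 73.8, with a median of 44.9, at percentile 85.9. The strongest of them, and of all members in control cells, was chr1:840051-840300, with fold enrichments of 73.8 (percentile 99.5) and 57.7 (percentile 94.3). Of the 13 shared peaks 10 had a lower and 3 a higher percentile after treatment. The median change was −14.3 percentile points, within the quartiles of all shared peaks.

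Next to ISG15 itself 1 site ranked higher and the flanking sites ranked lower in the treated list. The peak in the ISG15 gene body, chr1:937201-937550, 11502 bp upstream of the canonical start and 1898 bp from the start of HES4, a transcriptional repressor gene, had a fold enrichment of 44.9 in control cells (percentile 85.9). In treated cells its fold enrichment of 94.8 placed it at percentile 99.9 of the list. The right flank, chr1:950751-951100, 2048 bp downstream of the ISG15 start, went from a fold enrichment of 46.9 (percentile 88.3) to one of 19.2 (percentile 28.2). Its width decreased from 350 to 100 bp, and the deposited FDR of the treated peak was 1.85e-03. A drop of this many percentile points was seen in 4.48% of all shared peaks. The left flank, chr1:933951-934150, 2.368 kb from the gene body, was weak in both lists (21.5 at percentile 29.8, and 13.3 at percentile 12.4).

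The neighbour of ISG15 on the right, AGRN, which encodes the basement membrane proteoglycan agrin, held the largest gain and 3 of the 4 arisen peaks. Its intron peak chr1:968401-968600 went from a fold enrichment of 25.7 (percentile 41.6) to one of 63.1 (percentile 96.8), and its width went from 200 to 350 bp. Of all shared peaks 0.648% gained as many percentile points. Arisen peaks in AGRN introns were chr1:978301-978500, chr1:986551-986700 and chr1:989951-990350, with fold enrichments of 35.6, 9.08 and 25.2 in treated cells. The last had an exact consensus match and a deposited FDR of 1.87e-07. The fourth arisen peak, chr1:860351-860450 in an intron of SAMD11, was weak, with a fold enrichment of 7.54 and an FDR of 1.80e-03. Toward the other end of the locus, the peak in a coding exon of PERM1, a muscle regulator gene, chr1:911451-911700, dropped from percentile 92.6 to 42.1 and that in a SAMD11 intron, chr1:873501-873800, from 65.4 to 27.8.

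The absence of losses and the number of arisen peaks around ISG15 depended on the rule. If the shared stretch had to exceed 50% of the wider peak, 1 of 13 was lost (the right flank of ISG15), while 50.7% of all control peaks were lost. With an FDR of at most 1e-05 required in both lists, 2 of 11 were lost (the right flank and the SAMD11 intron peak), and of the arisen peaks only chr1:989951-990350 remained. With that FDR required of the treated list alone and the control list left whole, a setting chosen after seeing the data, 4 of 13 were lost at ISG15, 17 of 37 over all loci (45.9%), and 57.1% of all control peaks.

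Across the 4 loci the peaks that were lost were weaker than those that were kept. The median control fold enrichment was 41.0 (18.4 to 73.8) for the 26 kept and 21.9 (11.6 to 38.9) for the 11 lost peaks, and over the whole list it was 34.9 and 20.6. When all control peaks were taken by decile, the share lost decreased from 88.2% in the weakest to 7.60% in the strongest decile. All 5 members in the lowest 2 deciles were lost, and 0 of 4 in the third, where 65.7% of all control peaks were lost. In the highest 3 deciles 2 of 17 members were lost, the IFIT5 UTR peak and an RPH3A intron peak, and 13.3% of all 14241 control peaks there.

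**Figure D3:**
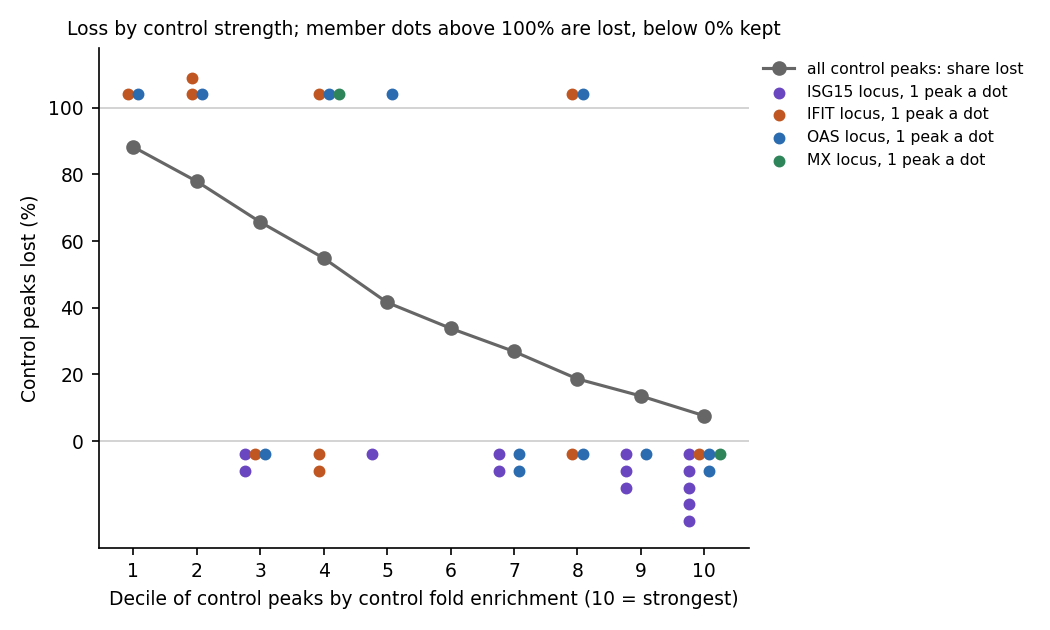
Share of all control peaks that were lost (grey line, vertical axis in %) by decile of control fold enrichment (horizontal axis, 10 is the strongest). Each dot is 1 member peak, coloured by locus, drawn above 100% if lost and below 0% if kept. The lost members lie in deciles 1 to 8 and the ISG15 dots are all on the kept side.

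Strength, base composition and consensus differed between the loci and, with the loci pooled, between fates. The median GC content of the 500 bp around the peaks was 70.0% at ISG15 (58.4 to 76.4%), 40.4% at IFIT, 49.2% at OAS and 46.3% at MX, and 45.6% over all control peaks. Kept members had a median GC content of 56.6% and lost members 43.0%, and all kept and lost control peaks 48.2% and 43.0%. Without ISG15, where no control peak was lost, the medians of kept and lost members were 44.8% and 43.0%. They were 40.6% and 40.2% at IFIT, and 47.0% and 51.4% at OAS. In the decile of the list with the highest GC content 15.8% of peaks were lost, and 0 of the 12 members in it, all around ISG15. A consensus match was present in 19 of 26 kept and 2 of 11 lost members (73.1 and 18.2%), and in 62.1 and 31.5% of all kept and lost control peaks.

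The loss at each locus can be set beside the loss of control peaks of like strength. Averaged over the deciles in which its peaks lay, the share lost in the whole list was 23.5% for ISG15, 51.9% for IFIT, 37.4% for OAS and 31.3% for MX. By deciles of GC content the corresponding shares were 16.6%, 52.1%, 40.8% and 45.5%. The losses seen, 0%, 50%, 41.7% and 50%, were below these shares at ISG15 and close to them at IFIT and OAS, while MX had only 2 peaks. The interval for ISG15, up to 22.8%, ended just below its share by strength, 23.5%, and included its share by GC content. Because it treats neighbouring peaks as independent, it is no test of either share. Strength thus moved with the fate of the peaks and with the locus. GC content moved with the locus, but among members little with fate once ISG15 was left out. The part of either in the result was not tested.

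The peaks that were kept changed in width and in rank. Of the 26 kept control peaks 25 overlapped a single treated peak and no other, the exception being the wide LIPA peak. Of these 25, 11 were narrower in treated cells (44%), 9 wider and 5 of equal width, and 62.4% of the 27003 such peaks of the whole list were narrower. At ISG15 4 of 13 were narrower and 7 wider, and at OAS 5 of 7 were narrower. A higher percentile in treated cells was found in 7 of the 25, and the median change was −13.3 percentile points, within the quartiles of all such peaks. No interval or test was computed for these differences.

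**Figure D4:**
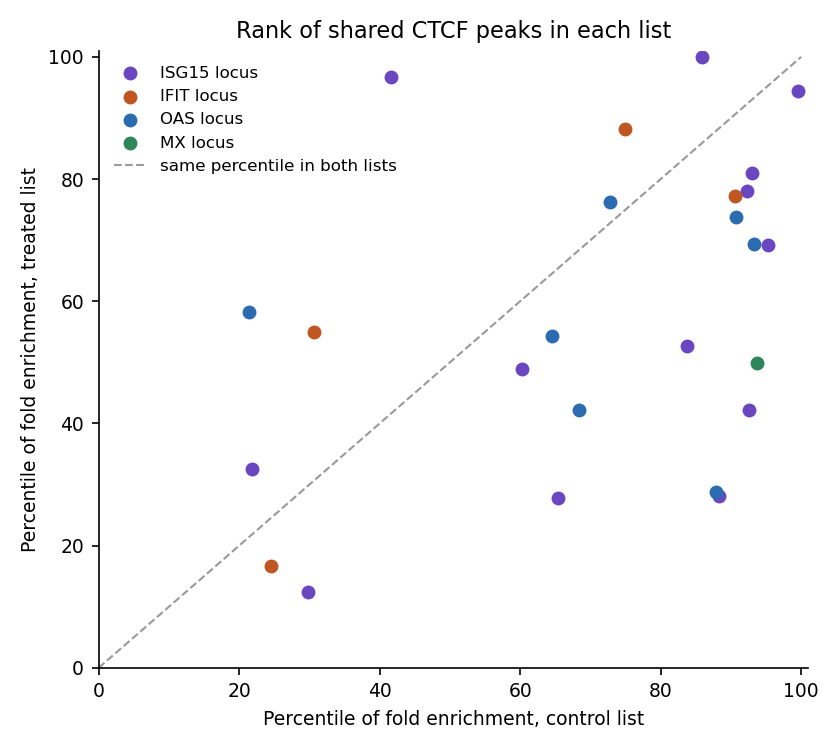
Percentile of fold enrichment in the control list (horizontal axis) against that in the treated list (vertical axis) for the 25 members that overlapped a single treated peak, coloured by locus, with a dashed line where the percentiles are equal. Of the 25 points 18 lie below the line, and the ISG15 locus holds the highest treated percentile, 99.9.

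The other genes of the interferon pathway were examined with the same windows. The list held 40 genes in 33 merged windows, and IFIT5, whose peaks all lay in the IFIT locus, added none. Of 248 control peaks 87 were lost, a share of 35.1% (29.4 to 41.2%), and 20 of 181 treated peaks had arisen (11%, 7.27 to 16.5%). The interval of the lost share lay below the 42.9% of the whole list and included the 40.9% of peaks near protein-coding genes.

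Genes of the receptors and of signalling lost 26 of 82 control peaks (31.7%, 22.6 to 42.4%). JAK1, a receptor-associated kinase, lost 8 of 12, whereas TYK2, its partner kinase, lost 1 of 12 and had 3 arisen peaks. STAT2 lost 4 of 10 and IRF9 2 of 8, both encoding subunits of the factor that binds interferon-stimulated genes. The receptor genes IFNAR2 and IFNAR1 together lost 2 of 11, the regulator genes IRF1 6 of 13 and IRF7 2 of 8, and USP18, the protease that removes ISG15, 1 of 4.

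Genes of nucleic acid sensors lost 14 of 49 control peaks (28.6%, 17.8 to 42.4%). The cytosolic RNA sensor genes RIGI and IFIH1 lost 5 of 11 and 2 of 7, and their relative DHX58 lost 1 of 12. At TLR3, the endosomal RNA sensor, 3 of 6 were lost, and at the genes of ZBP1 and of the DNA sensor CGAS 2 of 10 and 1 of 3.

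Effector genes lost 47 of 117 control peaks (40.2%, 31.7 to 49.2%). The largest counts were those of CMPK2 and RSAD2 (viperin), with 6 of 10 lost, and of IFI35, IFI27, OASL and the IFI44L and IFI44 pair, with 4 lost each of 6, 9, 11 and 8. ADAR, the RNA-editing enzyme, lost 3 of 6, as did the HERC6 and HERC5 pair, of which HERC5 is a ligase for ISG15, and the IFITM genes, which block viral entry. EIF2AK2, the kinase PKR, lost 3 of 5 and BST2 (tetherin) 3 of 13. GBP1 and TRIM22 lost 0 of 3 and 0 of 5. The remaining effector genes, IFI6, ISG20, XAF1 and the SAMD9 and SAMD9L pair, lost 1 or 2 control peaks each. The intervals of the 3 groups overlapped one another.

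All losses above are calls against a treated list that was shorter than the control list. With the control list limited to as many of its strongest peaks as the treated list held, 3 of 23 members were lost (13.0%), against 24.6% of the control peaks so limited. The lists give no read counts, so the depth behind a single peak is unknown, and a lost peak is one not called in treated cells, not one shown to be unbound.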

How the data were processed

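CTCF ChIP-seq of control and CBL0137-treated HT1080 cells was analysed from the peak lists deposited for each condition. The authors mapped reads to hg19 with Bowtie2 2.2.3, removed ambiguous and duplicate reads with SAMtools 1.5, and called peaks with PePr (p-value cutoff 0.05, 100 bp window) from 2 ChIP and 2 input libraries per condition together. The deposited columns were read in broadPeak order, since the files have no header. The authors' fold enrichment is a ratio of ChIP over input. Per peak, the authors also deposited a p-value, which was not used, and an FDR, whose method is not given in the sources used here, and a display score that was not used. Further lists deposited by the authors hold the folds and p-values of their own comparison of the conditions and were not used.

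Genes were those of GENCODE v44lift37, and overlap meant at least 1 bp. Percentiles rank the fold enrichment within a list. GC content was taken over 500 bp and the consensus was searched over 400 bp around peak centres, allowing at most 1 mismatch. Peaks on contigs other than the chromosomes, 26 in each list, were left out of sequence measures. The peaks named in full are those flanking the clusters or inside member genes, the strongest of each locus, arisen peaks and shared peaks whose rank moved most. The others are summarised or described for completeness. The members and lists were chosen with earlier results of these data known. Calculations were made with pysam 0.24.0, pandas 2.3.3, numpy 2.4.6 and scipy 1.17.1 in Python 3.11.15, and the routines were tested on simulated data. Because every list pools the replicates, no test was run, and the read depth per library is not held by the lists. Other overlap rules, thresholds, window sizes, list lengths and consensus rules were tried. Some windows of the pathway list enter the group counts but are not reported here one by one.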

Additional observations from a re-analysis of the deposited data

How the results depend on the processing

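No paired analysis was possible because the files used here merge the replicates, so that a replicate has no number of its own to pair or to leave out. Tracks of signal for single replicates were not used here. Over 10 results and 85 alternatives, 54 values moved little, meaning that a count stayed within 1.5 times its value or a share within its interval, and 31 moved further. A count of 37 control peaks could thus become 26 (50 kb windows) or 51 (200 kb windows) and be among the 54. With the strongest control peaks only, as many as there are treated peaks, the members' lost share was 13.0% instead of 29.7% and the number of control peaks 23 instead of 37. Losses were then 1 of 3 at IFIT, 2 of 8 at OAS, 0 of 1 at MX and 0 of 11 at ISG15. The share lost at the other pathway genes was 17.7% instead of 35.1%, beside 24.6% of all control peaks so limited. With gene bodies alone there were 8 control and 5 treated peaks, 0 arisen. Losses were 1 of 2 at IFIT, 2 of 4 at OAS and 0 of 1 at MX. The lost share was 37.5% for the members and 57.1% at the other pathway genes, beside 42.9% over the whole list, which no window changes. With 50 kb on each side OAS lost 2 of 8 and MX 0 of 1. Requiring more than 50% of the larger peak gave 7 arisen peaks instead of 4, 1 loss at ISG15 and 46% at the other pathway genes, and more than 50% of the control peak gave 7, 1 and 44.4%. Of all control peaks 50.7% and 49.8% were lost by these rules. An FDR of at most 1e-05 in both lists gave 1 arisen peak, and losses of 2 of 11 at ISG15 and 3 of 9 at OAS. Applied to the treated list alone this FDR gave 1 arisen peak and, in a comparison chosen after seeing the data, a lost share of 45.9%, 4 losses at ISG15 and 49.2% at the other pathway genes. The share of all control peaks was then 57.1%. A fold enrichment of at least 10 in both lists gave 2 arisen peaks. The number of members with a consensus match was 21, and it was 8 with no mismatch, 33 with 2 mismatches, 20 within 200 bp, 27 by a base-frequency matrix and 22 over the whole peak, the last chosen after seeing the data. The windows contain few peaks, so 1 peak moves the count of a locus visibly, and the cause of these shifts was not tested.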

Other observations

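Identical or nearly identical consensus sequences lay repeated under 2 member peaks. Apart from the inverted matches in the LIPA intron, the kept SAMD11 intron peak left of ISG15, chr1:873501-873800, held 2 exact matches on the minus strand, 57 bp apart, with all 30 printed bases identical.
SAMD11 intron, both matches, chr1:873626-873637 and chr1:873683-873694, minus strand: aaacacagcCCAGCAGGTGGCagaggggag
The longest stretch without a CTCF peak that touched the MX window was 177 kb in control cells and 289.9 kb in treated cells. For the IFIT window it was 183.05 kb in control and 137.35 kb in treated cells, for the OAS window it was 63.4 and 96.45 kb, and for the ISG15 window it was 57.85 kb in both lists.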
